A study of Mus musculus with 8 samples.

Results

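The genes described here are *Igkc*, *Ighm*, *Igha* and *Jchain*, 4 of the 19945 genes counted in single cells of mouse pancreatic islets. *Igkc* encodes the constant region of the κ light chain, *Ighm* and *Igha* the constant regions of the heavy chains of IgM and IgA, and *Jchain* the joining chain that links secreted IgM and IgA into polymers. They were chosen from their levels in these same data, which were high in B cells and, through stray droplets, in a β-cell cluster and other classes, so those levels are given as a description with no test. The table holds 16 immunoglobulin rows with *Jchain* among them, and the other 12 are given only where they bear on these genes.

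B cells carry antibody as a receptor built from heavy and light chains, and each cell uses a κ or a λ light chain. A B cell that has not switched class makes IgM, often with IgD, and switching joins the same variable region to another constant region such as that of IgA. Plasma cells are the secreting stage: they make antibody mRNA in very large amounts together with the joining chain and the protein-folding machinery under the transcription factor *Xbp1*, and they turn down B-cell genes such as *Ms4a1* (CD20) and *Pax5*. IgA plasma cells are best known from mucosal tissue, and islets hold few lymphocytes.

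In the mm10 genome build, *Igkc* lies on chromosome 6 (70726435 to 70726966, forward strand) as a single exon. *Ighm* (113418558 to 113422730, up to 6 exons in a transcript) and *Igha* (113254830 to 113260236, up to 4 exons) both lie on the reverse strand of chromosome 12. *Jchain* lies on the reverse strand of chromosome 5 (88519809 to 88527891, up to 4 exons). The first 3 are annotated as immunoglobulin constant-region genes and *Jchain* as a protein-coding gene, in GENCODE release M21.

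Islets were handpicked from wild-type mice, 5 mice a condition and about 1200 islets, and the dissociated cells were profiled by droplet-based 3′ scRNA-seq, in which each UMI (unique molecular identifier) stands for 1 captured mRNA molecule. The FAKi group had received the FAK inhibitor PF562271 by mouth at 50 mg/kg, in 2 doses a day for 3 weeks, and the vehicle group had received vehicle. Islets of both groups were isolated after a further 10 days without drug, from mice that were 6 to 12 weeks old at the start. The 8 samples on record were read as 4 sequencing lanes of each of 2 libraries, so each condition is 1 library of pooled mice, no test between conditions was possible, and every interval below covers counting error only.

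The vehicle library held 3776 cells and 59514118 UMIs, and the FAKi library 3183 cells and 57836783 UMIs. Cell types and clusters are those of the deposited annotation. Of all cell barcodes, 4 occurred in both libraries. Cells that went against their labels and touch these genes were 5 of the 9 FAKi cells annotated as B cells, 17 of the 28 FAKi and 18 of the 165 vehicle cells annotated as T cells (rich droplets aside), which had no UMI of 7 T-cell genes. A further 10 vehicle droplets outside the B cells were rich in *Igkc*, some of them with the genes of their labelled class and some without. Each is described where it enters, and the main results that rest on it are given with and without it. Levels are CPM, counts per 1000000, the UMIs of a gene scaled to that many UMIs of its group, with exact Poisson 95% intervals. Shares of cells above 0 carry Clopper-Pearson 95% intervals, a share of 0 carries the limit that 3 counts would give, which lies below the upper end of that interval, and ratios exact conditional 95% intervals.

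Nearly all of the immunoglobulin RNA was in the vehicle library, and most of it sat in a handful of droplets. *Igkc* had 37984 UMIs in the vehicle library (638 CPM, 632 to 645) and 151 in the FAKi library (2.61 CPM, 2.21 to 3.06). The 3 richest vehicle droplets held 75.1% of the vehicle *Igkc* UMIs, and of the 292 vehicle cells with any *Igkc* UMI, 153 had exactly 1. *Ighm* had 7058 UMIs in 269 vehicle cells, 46.2% of them in 1 droplet, and 107 UMIs in 42 FAKi cells. *Igha* had 8186 UMIs in 35 vehicle cells, and 97.1% of these came from 2 droplets. In the FAKi library *Igha* was found in 0 of 3183 cells, and a count of 0 allows up to 0.0943% of cells to hold a UMI. *Jchain* had 4271 UMIs in 29 vehicle cells, 94.3% of them in 3 droplets, and 5 UMIs in 5 FAKi cells. In the vehicle library the sums of the 4 genes were thus largely those of a few droplets. In the FAKi library *Ighm* was spread more evenly, with 8.41% of its UMIs in the richest cell and 30.8% in the richest 5.

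**Figure D1:**
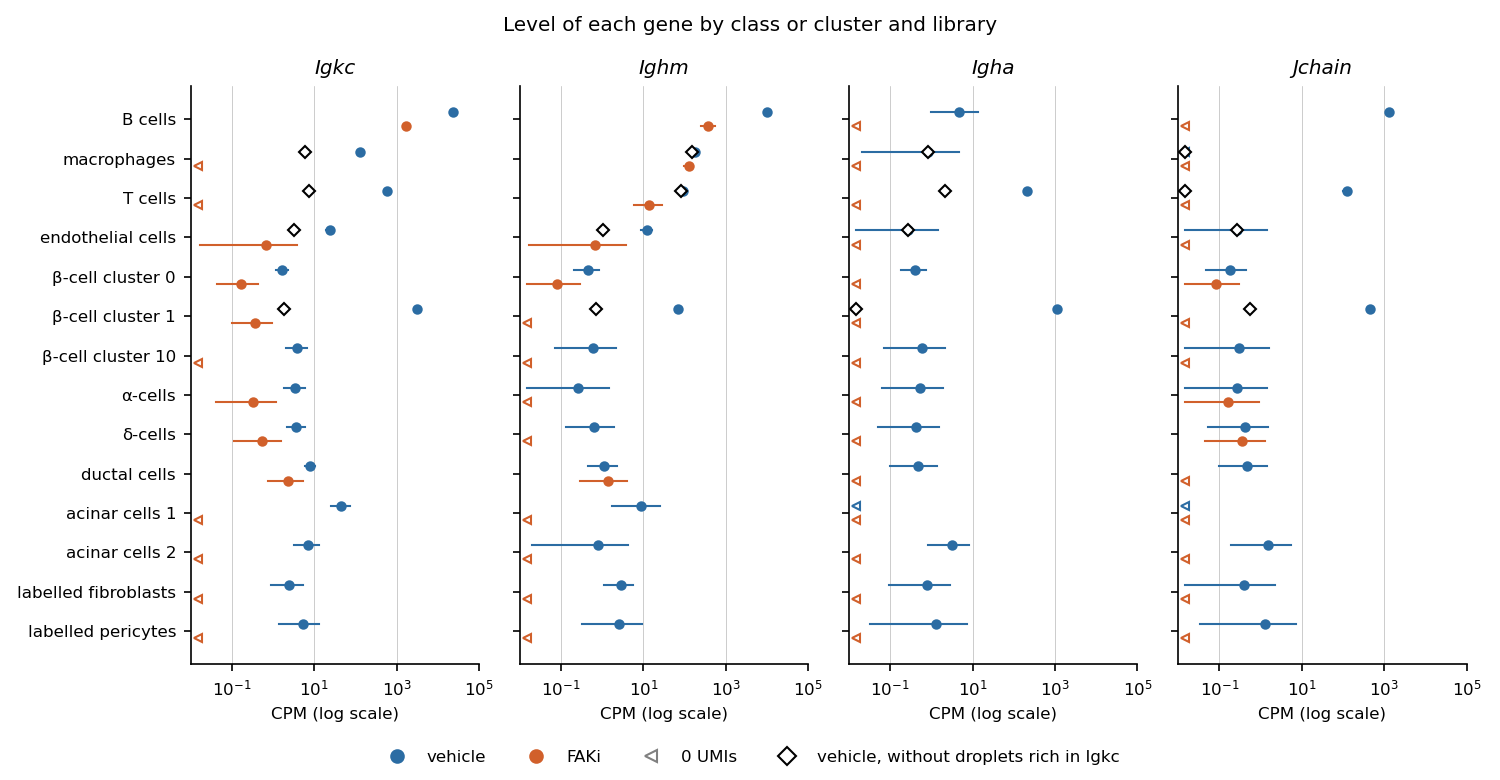
Level of each gene (CPM, log scale) in each annotated class, with the 3 β-cell clusters apart, in the vehicle (blue) and FAKi (orange) library. Bars are exact Poisson 95% intervals, open triangles mark 0 UMIs, and open diamonds give the vehicle value without droplets rich in *Igkc*. In β-cell cluster 1 the vehicle *Igkc* level drops from 3049.8 to 1.81 CPM without 3 droplets, next to 1.63 CPM in cluster 0. *Ighm* in vehicle macrophages moves from 179 to 150 CPM without 1 droplet.

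In vehicle B cells, κ light chain and μ heavy chain mRNA were present in almost every cell. *Igkc* was detected in 112 of 113 cells, at a median of 35 UMIs a cell (lower and upper quartile 19 and 65) and a range of 0 to 7917. *Ighm* was detected in 111 of 113 cells, at a median of 11 UMIs (quartiles 6 and 32) and a range of 0 to 3258. Summed over the cells, *Igkc* stood at 23687 CPM (23309.8 to 24069) and *Ighm* at 9744 CPM (9503 to 9990.4). The richest B cell alone held 52.8% of the *Igkc* and 52.8% of the *Ighm* UMIs of the class, so the summed levels lie far above the typical cell. *Jchain* was found in 5 of 113 B cells, and 777 of its 819 UMIs were in that same richest droplet. *Igha* had 3 UMIs in 3 B cells (4.74 CPM, 0.977 to 13.8).

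Against all other vehicle cells, B cells were 60.7 times higher in *Igkc* (59.5 to 62.0), 648 times in *Ighm* (604 to 696) and 22.1 times in *Jchain* (20.4 to 23.8), whereas *Igha* was 29.3 times lower in B cells (10.0 to 142). Thus 3 of the 4 genes passed a 4-fold difference upward, as did 5.13% of the 13108 genes with at least 100 UMIs in these cells, and *Igha* passed it downward, as did 11.6%. These ratios turned on the 10 droplets rich in *Igkc*. Without them the *Igkc* ratio was 6855, that of *Ighm* 1902 and that of *Jchain* 3797, and upward calls stood at 5.15% of genes. The direction of *Igha* turned: its 3 UMIs in B cells stood at 4.74 CPM against 0.494 CPM in the remaining cells, 9.59 times higher (1.87 to 30.9). These 3 UMIs, at most 1 in a cell, equal the floor of 3 counts, so the turn rests on a value at the floor. *Igha* also no longer had the 100 UMIs to enter the 4-fold comparison. The *Jchain* ratio also rested on the richest B cell, and was 2.42 without the richest cell of each side. The defining B-cell genes were in place in this library: all 21 genes of the B-cell list were at least 4 times higher in the B cells than in the other cells without those droplets, among them the receptor partner *Cd79a* (2786 against 17.9 CPM) and *Ms4a1* (1070.2 against 0.170 CPM).

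Constant-region mRNA of the light and heavy chains was counted cell by cell in the vehicle B cells. These counts do not show which rearranged chain a cell used. Among the 112 B cells with at least 3 UMIs of *Cd79a* and *Cd79b* together, *Igkc* exceeded the summed λ constant genes *Iglc1*, *Iglc2* and *Iglc3* in 104 cells, and the λ genes exceeded *Igkc* in 8 cells (7.14%). In those 8 cells *Igkc* had a median of 6.5 UMIs (0 to 19) and the λ genes a median of 60.5 (9 to 281), most of it *Iglc2* with a median of 59.5. In the 104 κ cells the medians were 38.5 UMIs of *Igkc* and 9.0 of the λ genes, and *Iglc2* was found in all but 2 of them at a median of 6.0. Low λ constant-region counts thus accompanied *Igkc* in nearly every κ cell. The λ constant genes are close paralogs, and reads can be assigned to the wrong one, so their sum is more certain than each gene. The ratio of *Igkc* to *Ighm* UMIs had a median of 2.94 over the 110 of these cells with *Ighm*, and 13 of the 112 cells had more *Ighm* than *Igkc*. *Ighd*, the δ heavy chain of IgD, was detected in 67 of the 113 B cells at 290.4 CPM (250.0 to 336). Of the heavy-chain constant genes used after class switching, *Ighg3* had 37 UMIs in 18 B cells and 0 in the other vehicle cells. *Ighg2b* had 1 UMI in the vehicle library, outside the B cells. Whether the 18 cells had switched class was not tested.

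**Figure D2:**
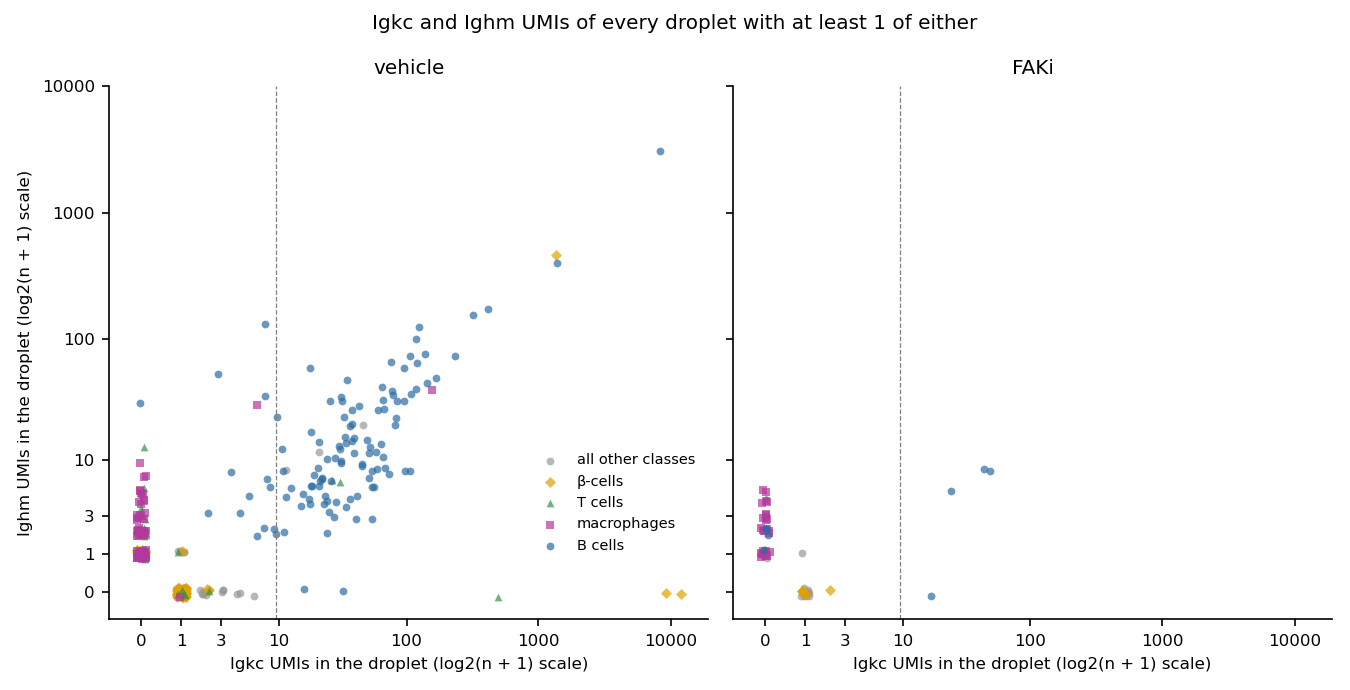
UMIs of *Igkc* (x axis) and *Ighm* (y axis) in every droplet with at least 1 of either, on a log2(n + 1) scale with a small random shift so that points do not cover each other, by library and annotated class. The dashed line marks the minimum of 10 *Igkc* UMIs for a rich droplet. Vehicle B cells form a cloud in which both genes rise together, macrophages and T cells stand in a column at 0 *Igkc* UMIs, and 3 droplets outside the B cells, with 499, 9598 and 11012 *Igkc* UMIs and no *Ighm*, lie along the bottom.

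The FAKi library had only 9 cells annotated as B cells, and 5 of them went against that label. Their *Igkc* UMIs summed to 132 (1720.1 CPM, 1439 to 2039.8), all in 4 of the 9 cells, at 16 to 47 UMIs a cell. *Ighm* had 29 UMIs in 7 cells (378 CPM, 253 to 543), and *Igha* and *Jchain* had none, and a count of 0 allows up to 33.3% of cells. The 5 cells without *Igkc* also had under 3 UMIs of *Cd79a* and *Cd79b* together and none of *Ms4a1*. All 5 carried the chemokine receptor *Xcr1* and the cytokine receptor *Flt3*, both known from dendritic cells, and 4 carried the myeloid lysozyme gene *Lyz2*. Of the 113 vehicle B cells, 0 had *Xcr1*, 0 had *Lyz2* and 1 had *Flt3*. These 5 cells held 7 *Ighm* UMIs (117 CPM).

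With all annotated B cells, *Igkc* was 13.8-fold lower in the FAKi library (11.6 to 16.5), *Ighm* 25.8-fold lower (17.9 to 38.5) and *Jchain* at least 33.1-fold lower against the floor of 3 counts. All 3 passed a 4-fold difference downward, as did 6.67% of 795 genes. Restricted to cells with at least 3 UMIs of *Cd79a* and *Cd79b*, which left 4 FAKi and 112 vehicle cells, *Igkc* stood at 7831 against 23728 CPM, 3.03-fold lower (2.55 to 3.62), and *Ighm* at 1305 against 9757 CPM, 7.48-fold lower (4.93 to 11.9), and *Jchain* was at least 7.28-fold lower against the floor. The median cell then had 34.5 UMIs of *Igkc* in the FAKi library and 35 in the vehicle library, and 6.5 and 11 of *Ighm*. In that comparison *Ighm* and *Jchain* passed the 4-fold difference and *Igkc* did not, against 3.27% of 703 genes. Both calls rested on the single vehicle droplet with 7917 *Igkc*, 3258 *Ighm* and 777 *Jchain* UMIs. Without it *Igkc* was 1.48-fold lower (1.24 to 1.77) and *Ighm* 3.64-fold lower (2.40 to 5.82), neither past the 4-fold difference that 3.47% of 692 genes passed. *Jchain* then had 42 vehicle UMIs (68.6 CPM), too few to be counted and below the FAKi floor. With all annotated B cells and without that droplet, *Igkc* was 6.72-fold lower (5.65 to 8.04) and *Ighm* 12.6-fold lower (8.73 to 18.8), while *Jchain* no longer had the UMIs to be counted. These intervals cover counting error and not the spread between cells, and the FAKi values rest on 9 cells, or 4 with the restriction. Against the other FAKi cells, the B cells stood 5229 times higher in *Igkc* (3219 to 8961) and 280 times in *Ighm* (176 to 434), both past a 4-fold difference that 9.57% of 12175 genes passed, while *Igha* and *Jchain* had too few UMIs to be counted. With the same restriction on *Cd79a* and *Cd79b* these ratios were 23806 (14656 to 40797) and 966 (573 to 1568).

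β-cell cluster 1 of the vehicle library held more *Igkc* than the B cells did, 57.9% of the library's UMIs against 39.5%. Its level was 3049.8 CPM (3009.6 to 3090.3), 1867 times that of β-cell cluster 0 (1354 to 2652). *Igha* stood at 1101 against 0.397 CPM, *Jchain* at 459.5 against 0.177 CPM and *Ighm* at 68.9 against 0.442 CPM. In *Ighm*, 492 of the 497 UMIs of the cluster lay in 1 droplet. All 4 genes passed a 4-fold difference that 0.443% of 9490 genes passed. Of the 305 cells of the cluster, 16 had an *Igkc* UMI (5.25%, 3.03 to 8.38), next to 37 of 650 in cluster 0 (5.69%, 4.04 to 7.76). The share of cells therefore showed nothing of the 1867-fold ratio, because 3 droplets carried it. Without those 3, *Igkc* had 13 UMIs in 302 cells of cluster 1 (1.81 CPM, 0.965 to 3.10) against 1.63 CPM (1.15 to 2.25) in cluster 0, a ratio of 1.11. *Igha* was then found in 0 of 302 cells, a count that allows up to 0.993% of them, and none of the 4 genes had the 100 UMIs to enter the 4-fold comparison, in which 0.38% of genes passed. β-cell cluster 10 had 13 *Igkc* UMIs in 121 cells (3.81 CPM, 2.03 to 6.51), and none of its droplets was rich. In FAKi cluster 1 *Igkc* had 4 UMIs in 546 cells (0.368 CPM, 0.10 to 0.943), and *Ighm*, *Igha* and *Jchain* had none, which allows up to 0.549% of cells.

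A droplet outside the B cells was called rich when it had at least 10 *Igkc* UMIs. Of the 10 such droplets, all in the vehicle library, the poorest had 11 *Igkc* UMIs, and the highest value outside the class was 6. These 10 droplets held 99.1% of the *Igkc* UMIs outside the B cells, 99.6% of *Igha*, 99.4% of *Jchain* and 66.0% of *Ighm*. By annotation 3 were β-cells of cluster 1, 3 T cells, 3 endothelial cells and 1 a macrophage. In 4 of them the 4 genes made up 18.9 to 78.0% of UMIs, with 5 to 9 of the 21 B-cell genes detected, and in the other 6 under 1%, with 14 to 17 of the B-cell genes.

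In the 2 richest droplets, annotated as β-cells of cluster 1, antibody mRNA made up most of the transcriptome. The richest had 21863 UMIs, of which 11012 were *Igkc*, 4084 *Igha* and 1789 *Jchain*, so that these genes took 77.2% of its UMIs. The next had 19141 UMIs, with 9598 of *Igkc*, 3862 of *Igha* and 1461 of *Jchain*, or 78.0%. Neither had a single *Ighm* UMI. Their barcodes differed at 11 of 16 letters, and the doublet caller marked neither. *Ins2*, the main insulin gene of the mouse, had 18 and 17 UMIs in them, against a median of 8098 in the vehicle cells of cluster 1 and of 14 in endothelial cells, which should lack insulin mRNA. The 3 rich droplets of the cluster had at most 23 *Ins2* UMIs, and 6 of its 305 cells had that few. The limit of 23 was taken from those 3 droplets, so their place among the 6 was set in advance. The 18 and 17 *Ins2* UMIs of the 2 richest droplets go against their β-cell label.

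**Figure D3:**
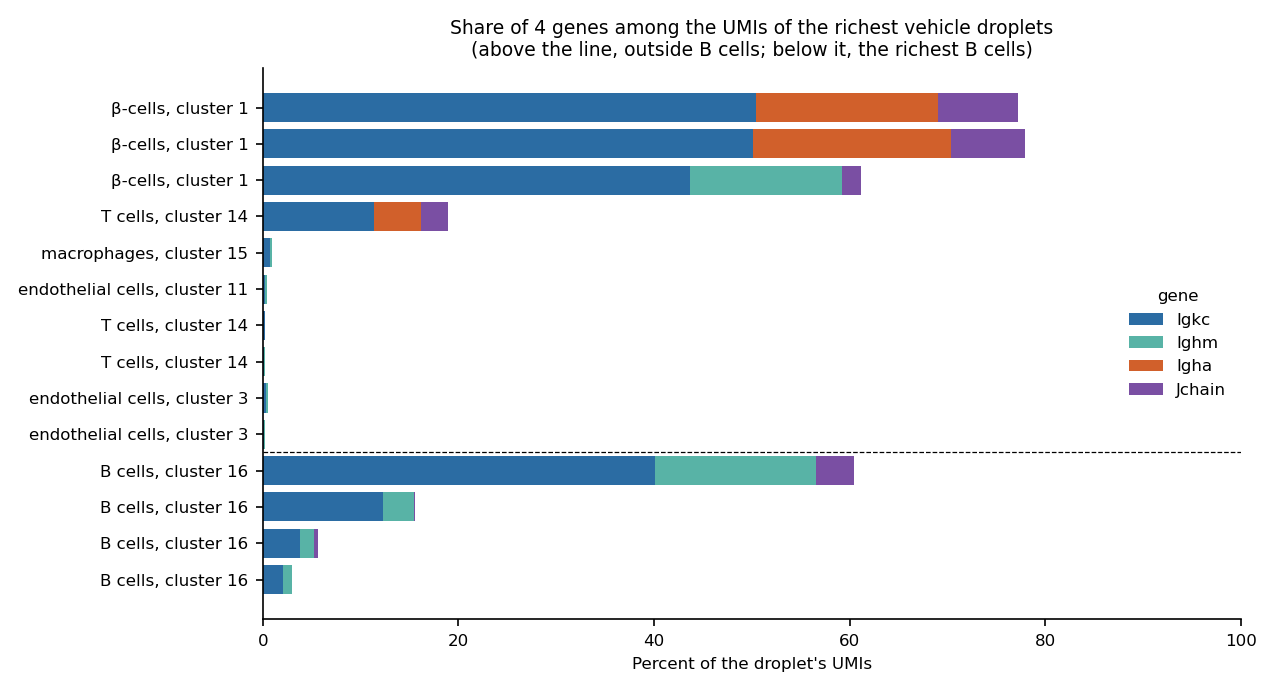
Percent of all UMIs of a droplet that came from *Igkc*, *Ighm*, *Igha* and *Jchain*, in the 10 rich droplets outside the B cells (above the dashed line, ordered by *Igkc* UMIs) and in the 4 richest B cells (below it), all of the vehicle library. The bars of the first 2 droplets reach 77.2% and 78.0%, and the macrophage, endothelial and other T-cell droplets stay under 1%.

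Both droplets carried the secretory genes of the plasma-cell list and part of the B-cell list was at 0 in them. Of the 17 plasma-cell genes beside *Jchain*, 15 had a UMI in these 2 droplets, 6 were at least 4 times higher than in vehicle B cells and none at least 4 times lower, and the median log2 ratio was 1.29. The list was counted without the minimum of 100 UMIs. Only 4 of its genes reach that minimum, and *Xbp1* and *Txndc5* are the 2 of them that were higher, beside 0.999% higher and 54.4% lower of the 701 genes that reach it (median log2 ratio -2.16). *Xbp1* stood at 1609.6 CPM against 126 CPM in B cells, 12.7 times higher (9.06 to 17.9). *Txndc5*, a protein disulfide isomerase of the endoplasmic reticulum, was 6.01 times higher (4.23 to 8.42), *Sdc1* (CD138, the surface marker of plasma cells) 9.44 times (4.03 to 21.1), *Derl3*, of the degradation pathway for misfolded proteins, 6.18 times (1.96 to 16.9) and *Eaf2*, an elongation factor, 7.72 times (3.38 to 16.6). *Tnfrsf17*, the receptor BCMA that keeps plasma cells alive, had 7 UMIs in the 2 droplets and 1 in all 113 B cells, a ratio of 108 (13.9 to 4874). That 1 UMI lay in the richest B cell, itself rich in antibody mRNA. The same cell held 53 of the 126 *Txndc5* and 9 of the 18 *Sdc1* UMIs of the B cells, and it was not left out of these ratios. *Irf4* and *Cd38*, also on the list, had no UMI in the 2 droplets, at B-cell levels of 103 and 90 CPM against a floor of 73.2 CPM.

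Of the 21 B-cell genes, 12 were at 0 in the 2 droplets. *Ms4a1* was at 0 against 1070.2 CPM in B cells, the B-cell transcription factor *Ebf1* against 778 CPM, the adaptor *Bank1* against 407 CPM and *Fcmr*, the Fc receptor for IgM, against 360 CPM. The others, among them *Pax5*, *Cd22*, *Blk*, *Cr2*, *Fcer2a*, *Spib* and *Ighd*, were at 0 as well, but their B-cell levels of 96.3 to 290.4 CPM lie less than 4-fold above the floor. With genes at 0 set to the floor, 8 of the 21 were at least 4 times lower (38.1%) and none higher, with a median log2 ratio of -1.44, and all 8 were among the 18 genes of the list with at least 100 UMIs. The share of the 701 genes with that minimum was 54.4%, and a gene at 0 can be counted as lower only where its B-cell level is at least 4-fold above the floor. Of the 8, *Ralgps2* rested on 1 UMI (a ratio of 0.103, 0.00259 to 0.583), and with every count under 3 raised to the floor the figures were 7 of the 21 and 36.7% of the 701 genes, so nothing particular to the list is read from these counts. *Cd79a* kept 33 UMIs (805 against 2786 CPM), *Ly6d* 37 (902 against 1645 CPM) and *Cd74*, the invariant chain of MHC class II, 77 (1878 against 12087 CPM). Against the remaining cells of cluster 1, 13 of the 17 plasma-cell genes and 8 of the 21 B-cell genes were at least 4 times higher. With at least 100 UMIs required these were 5 of 7 and 1 of 1, beside 1.14% of the 4817 genes with that minimum. Since the droplets were chosen by their *Igkc* UMIs, these ratios are a description.

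**Figure D4:**
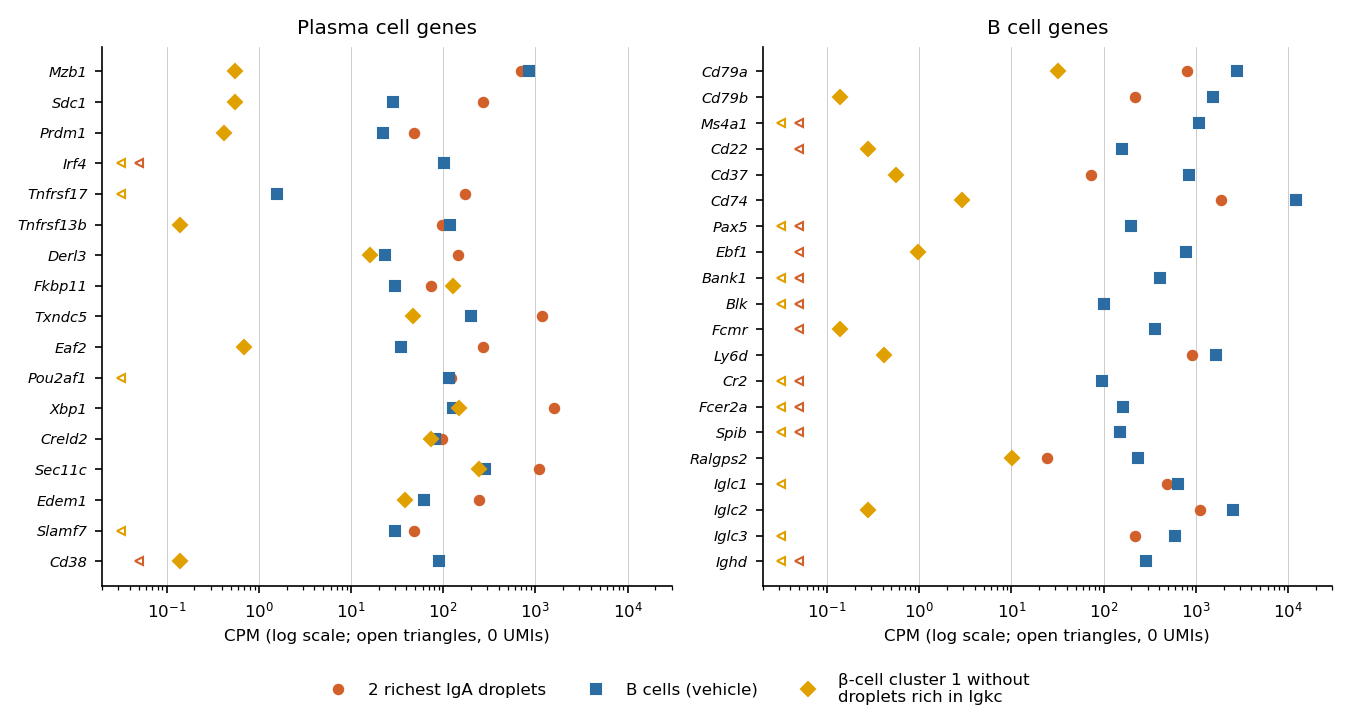
Level (CPM, log scale) of the plasma-cell genes other than *Jchain* (left) and of the B-cell genes that are reported singly (right) in the 2 richest IgA droplets (orange circles), in vehicle B cells (blue squares) and in vehicle cells of β-cell cluster 1 without rich droplets (yellow diamonds). Open triangles at the left edge mark 0 UMIs. *Xbp1*, *Sdc1*, *Tnfrsf17* and *Txndc5* lie to the right of the B cells in the IgA droplets, and B-cell genes such as *Ms4a1*, *Pax5* and *Ighd* are at 0 there.

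A variable segment marked the same 2 droplets. *Iglv1*, a λ variable segment, had 233 UMIs in the vehicle library, 102 and 122 of them in these droplets and 8 in B cells. The κ variable segments were nearly absent from the table: *Igkv6-20* and *Igkv2-109* had 4 UMIs each, all in B cells, and *Igkv1-110* had 3, all in the droplet of cluster 1 that carried *Ighm*. *Iglv3*, the other λ variable segment in the table, had 12 UMIs, of which 7 and 3 were in these droplets. In both droplets the λ constant genes were present at low counts beside *Igkc*, with 10 and 10 UMIs of *Iglc1* and 20 and 25 of *Iglc2*.

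The other rich droplets with a high antibody share differed in heavy chain. The third droplet of cluster 1 had 3160 UMIs and 667 detected genes, with a mitochondrial share of 7.94% just under the 8% limit of the authors. It carried 1379 *Igkc*, 492 *Ighm* and 61 *Jchain* UMIs, no *Igha*, and 23 *Ins2* UMIs, and these genes took 61.1% of its UMIs. The richest B cell also had a high antibody share without *Igha*, with 7917 *Igkc*, 3258 *Ighm* and 777 *Jchain* UMIs (60.5% of 19765), 53 UMIs of *Txndc5* and 9 of *Sdc1*. Its *Igkc* to *Ighm* ratio was 2.43, next to 2.80 in the droplet of cluster 1, while its *Igkc* to *Jchain* ratio was 10.2 against 22.6. The droplet of cluster 1 had 4 UMIs of *Txndc5*, 1 of *Xbp1* and none of *Sdc1*. An IgA droplet annotated as a T cell had 499 *Igkc*, 208 *Igha* and 121 *Jchain* UMIs and none of *Ighm* among 4383 UMIs. No UMI of the 7 T-cell genes was found in it, and it held 56 UMIs of the trypsinogen *Prss2* and 49 of *Ins2*. Its ratio of *Igkc* to *Igha* of 2.40 (2.04 to 2.83) overlapped that of 2.59 (2.53 to 2.66) in the 2 IgA droplets of cluster 1, whereas its ratio of *Igkc* to *Jchain* of 4.12 (3.37 to 5.07) lay below their 6.34 (6.11 to 6.58).

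In the remaining 6 rich droplets the 4 genes made up 0.186 to 0.912% of UMIs. The macrophage droplet had 150 *Igkc* and 38 *Ighm* UMIs and 16 of the 21 B-cell genes, including 24 UMIs of *Cd79a* and 23 of *Ms4a1*, beside 16 UMIs of *Lyz2*. The 3 endothelial droplets had 45, 22 and 11 *Igkc* UMIs, 14 to 17 of the B-cell genes and all 5 endothelial genes, and the doublet caller marked 2 of them. The other T-cell droplets had 32 and 27 *Igkc* UMIs, 15 and 14 of the B-cell genes and no UMI of a T-cell gene. *Igha* and *Jchain* were at 0 in all 6.

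Outside the B cells and the rich droplets, *Igkc* was found thinly in every class of the vehicle library. It had 203 UMIs in 170 of 3653 cells (4.65%, 3.99 to 5.39), or 3.46 CPM (3.0 to 3.97), and at most 6 UMIs in a cell. The level was lowest in β-cell cluster 0 at 1.63 CPM, β-cell cluster 1 at 1.81 CPM (0.965 to 3.10), cells annotated as fibroblasts at 2.38 CPM (0.874 to 5.19) and endothelial cells at 3.20 CPM (1.65 to 5.59). α-cells at 3.43 CPM (1.83 to 5.86), δ-cells at 3.64 CPM (2.12 to 5.83), β-cell cluster 10 at 3.81 CPM, cells annotated as pericytes at 5.22 CPM (1.42 to 13.4), macrophages at 5.94 CPM (2.39 to 12.2), acinar class 2 at 6.98 CPM (3.19 to 13.3) and T cells at 7.39 CPM (2.97 to 15.2) followed, each overlapping its neighbours. Ductal cells stood at 7.84 CPM (5.80 to 10.4), above both of the lowest clusters. Acinar class 1, whose median cell had 1480 UMIs, was highest per UMI at 45.3 CPM (25.9 to 73.6). Per droplet it was not the highest, with 9.94 *Igkc* UMIs per 100 cells next to 9.84 in ductal cells, 10.5 in acinar class 2 and 10.7 in β-cell cluster 10, and the other classes without rich droplets ranged from 2.22 in endothelial cells to 5.69 in β-cell cluster 0. In endothelial cells, which should lack immunoglobulin mRNA, 12 of 540 cells had an *Igkc* UMI (2.22%, 1.15 to 3.85) at a median of 5704 UMIs. In β-cells without rich droplets the share was higher, 5.69% (4.38 to 7.24), at a median of 30854 UMIs. Their level of 1.90 CPM (1.46 to 2.43) overlapped that of endothelial cells, and the source of these UMIs was not tested.

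This thin level was lower in the FAKi library. *Igkc* had 19 UMIs in 18 of 3174 cells outside the B cells (0.329 CPM, 0.198 to 0.514), 10.5-fold lower than in the vehicle library (6.56 to 17.8). In β-, α- and δ-cells together it had 93 UMIs in 1674 vehicle cells (2.23 CPM) and 13 in 2128 FAKi cells (0.260 CPM), 8.57-fold lower (4.77 to 16.7). *Igha* had 29 UMIs in 29 vehicle cells and none in FAKi cells, at least 9.50-fold lower, and *Jchain* had 20 and 5 UMIs, 3.93-fold lower (1.43 to 13.4). In the endocrine cells alone *Jchain* had 12 and 5 UMIs, 2.87-fold lower with an interval that includes no difference (0.942 to 10.4). Beside this stand the totals of the libraries, 638 against 2.61 CPM of *Igkc*, and the numbers of B cells and rich droplets. The part of RNA released from those cells in the thin level was not tested. The composition of the thin level was measured: outside the B cells, macrophages, T cells and rich droplets, *Igkc* had 4.20 UMIs for each of *Ighm* in the vehicle library (3.02 to 5.95), next to 5.38 (5.25 to 5.52) in the library as a whole and 2.43 (2.36 to 2.50) in its B cells. The ratio of *Igkc* to *Igha* was 7.27 (4.81 to 11.4), against 4.64 in the whole library (4.53 to 4.75), and the ratio of *Igkc* to *Jchain* 9.45 (5.95 to 15.8) against 8.89 (8.62 to 9.18).

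*Ighm* departed from this pattern in macrophages and T cells, where it was common and *Igkc* was not. Without the rich droplet, 64 of 128 vehicle macrophages had an *Ighm* UMI (50%, 41.0 to 59.0), at a level of 150 CPM (129 to 174), and *Igkc* had 7 UMIs in 2 of them (5.94 CPM). In the FAKi library 27 of 55 macrophages had *Ighm* (49.1%, 35.4 to 62.9; 126 CPM, 96.9 to 161) and 0 had *Igkc*, which allows up to 5.45% of cells. The ratio of *Igkc* to *Ighm* UMIs was 0.0395 in vehicle macrophages (0.0157 to 0.0832), under that of 4.20 in the other classes. A single macrophage below the minimum for a rich droplet held 6 of the 7 *Igkc* and 29 of the 177 *Ighm* UMIs. In endothelial cells *Ighm* was found in 3 of 540 vehicle cells (0.556%, 0.115 to 1.61) and 1 of 269 FAKi cells (0.372%, 0.00941 to 2.05), so *Ighm* was 141 times higher in vehicle macrophages than in endothelial cells (54.0 to 522) and 189 times in FAKi macrophages (32.8 to 7588). Depth was 7417 UMIs in the median vehicle macrophage and 5704 in the median endothelial cell.

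The macrophages with *Ighm* but no *Igkc* had the genes of their own class. There were 63 such vehicle cells, with 148 *Ighm* UMIs and at most 10 in a cell. Of the 63, 58 had a UMI of *Lyz2*, 42 of the receptor *Csf1r* and 42 of the complement gene *C1qa*. Of B-cell genes, *Cd79b* was found in 11, *Ighd* in 2, *Cd79a* in 1, and *Ms4a1* in none. All 27 FAKi macrophages with *Ighm* lacked *Igkc*, 25 had *Lyz2*, 6 had *Cd79b*, and *Cd79a* and *Ms4a1* were absent. With every cell thinned to 1000 UMIs, 14.5% of vehicle macrophages (8.70 to 22.2) and 14.9% of FAKi macrophages (6.20 to 28.3) still had an *Ighm* UMI, with 12 and 8 shallower cells left out, against 0.755% of vehicle endothelial cells and 0 of 253 FAKi endothelial cells. Thinned to 3000 UMIs the macrophage shares were 26.7% (18.4 to 36.5) and 43.6% (27.8 to 60.4).

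**Figure D5:**
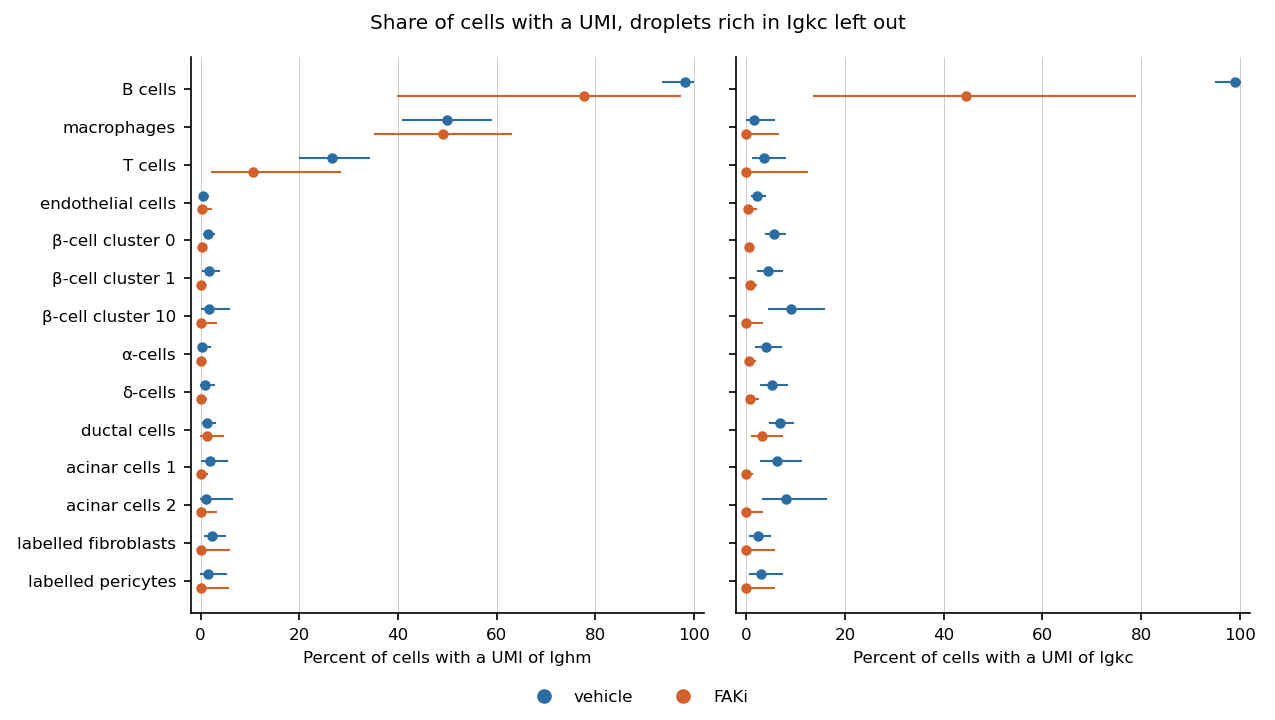
Percent of cells with at least 1 UMI of *Ighm* (left) and of *Igkc* (right) in each class and library, without rich droplets, with Clopper-Pearson 95% intervals. Macrophages of both libraries reach about the middle of the *Ighm* axis at 50% and 49.1% and lie near 0 on the *Igkc* axis, and T cells show the same contrast at a lower share.

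Among T cells of the vehicle library, 44 of 165 without rich droplets had an *Ighm* UMI (26.7%, 20.1 to 34.1; 83.4 CPM) and 6 an *Igkc* UMI (3.64%, 1.35 to 7.75). The *Ighm* level was 78.2 times that of endothelial cells (29.3 to 294), and the ratio of *Igkc* to *Ighm* was 0.0886 (0.0345 to 0.191). Among the 147 of these cells with a UMI of any of 7 T-cell genes the share was 28.6% (21.4 to 36.6). Of the 43 T cells with *Ighm* and no *Igkc*, 41 had a T-cell gene, 2 had *Cd79b*, 1 had *Ms4a1* and none had *Cd79a*. In the FAKi library 3 of 28 T cells had *Ighm* (10.7%, 2.27 to 28.2). Only 11 of those 28 carried a T-cell gene, and the other 17 had a median of 9348 *Ins2* UMIs. With the T-cell gene required, 1 of 11 cells had *Ighm* (9.09%, 0.230 to 41.3), an interval that overlaps the vehicle one. *Ighm* UMIs outside the B cells thus weighed differently in the libraries: B cells held 87.5% of the vehicle *Ighm* and 27.1% of the FAKi *Ighm*, or 87.4% and 20.6% with *Cd79a* and *Cd79b* required. Without strand or exon information in the table, an *Ighm* UMI does not say which part of the gene was transcribed.

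The genes whose levels ran most like those of each member were named over the 33 groups of a cluster and a library with at least 20 cells, by Pearson correlation of log2(CPM + 1) among 14092 genes. All points come from the same 2 libraries, and a few B-cell and rich-droplet groups set the high end, so the values are descriptions. For *Igkc* the list began with *Iglc2* (r = 0.87), *Jchain* (0.87), *Iglc3* (0.83), *Ly6d* (0.82) and *Ighm* (0.82). For *Ighm* it began with *Cd79b* (0.93), *Siglecg*, an inhibitory receptor of B cells (0.90), *Pou2f2*, the transcription factor Oct-2 (0.90), and the leukocyte genes *Cd52* (0.90), *Coro1a* (0.90) and *Rac2* (0.90). *Jchain* ran most like *Igkc* (0.87), *Iglv1* (0.85), *Iglc1* (0.83) and *Igha* (0.83). *Igha* ran most like *Jchain* (0.83), *Igkc* (0.72) and *Iglv1* (0.70), and then like T-cell genes such as *Cd28* (0.63) and *Cd5* (0.63), whose cluster holds the IgA droplet annotated as a T cell. Without the rich droplets neither was among its 10 genes, and with genes of at least 20 UMIs admitted 5 of the 10 genes were shared for *Igha* and 6 for *Jchain*. Without the rich droplets *Jchain* correlated most with *Iglv1* (0.98), *Pax5* (0.98) and *Iglc1* (0.98), and *Ighm* with *H2-Oa*, of MHC class II loading (0.95). The value for *Iglv1* rests on 8 UMIs in B cells out of its 233. It had the 100 UMIs needed to be among the 14092 genes only through the rich droplets. Between *Igkc* and *Ighm* themselves r was 0.82 with and 0.72 without those droplets.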

How the data were processed

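Islet cells of 2 mouse libraries, vehicle and FAKi, were profiled by 3′ scRNA-seq. The authors deposited UMI counts per gene and cell, made with Cell Ranger on build mm10 per the submitters' notes, with the lanes of a library pooled, and kept cells in Seurat 3.1 by detected genes and a mitochondrial share under 8%. The deposited mitochondrial percent, cell types and cluster numbers were used as given. The cells taken for sequencing numbered 8832 and 8437, and the table holds 3776 and 3183. Positions came from GENCODE M21.

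UMIs were summed per class and library and scaled to CPM with scipy 1.17.1 and pandas 2.3.3 under Python 3.11.15, with exact Poisson, Clopper-Pearson and conditional binomial intervals at 95%, which cover counting error only and were tested on simulated counts. A gene entered a 4-fold comparison with at least 100 UMIs in both groups together, and a count of 0 was set to a floor of 3 UMIs. Doublets were marked per library with scrublet in scanpy 1.11.5 (68 vehicle and 57 FAKi cells) and kept, except in the alternative without them. With 1 library a condition no test was run. Median depth was 10101.5 UMIs a vehicle cell and 13688 a FAKi cell.

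The members and gene lists were chosen with earlier results of these data known. Named genes were the 4 members, the immunoglobulin rows with the 5 variable segments of most UMIs, the B-cell and plasma-cell lists, and for each member the genes of highest correlation. Of the B-cell list, 1 gene is not reported on its own and enters only the counts over the list. *Xcr1*, *Flt3* and the other genes used to check labels were added after values were seen. The alternatives changed the summary over cells, the scaling, doublets, mitochondrial and gene-number limits, the richest cell, depth by thinning and the *Igkc* minimum. The restriction to *Cd79a* and *Cd79b*, the removal of rich droplets or of the richest B cell alone, thinning to 3000 UMIs and the raising of every count under the floor were added after seeing the data.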

Additional observations from a re-analysis of the deposited data

How the results depend on the processing

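The *Igkc* ratio of vehicle B cells to other cells, 60.7, was 32.6 as a mean over cells of each CPM, 36.1 without the 20 most abundant genes, 62.1 without called doublets, 149 in cells under 5% mitochondrial UMIs, 66.8 in cells with at least 1000 detected genes, 56.8 without the richest cell of each class, 31.9 with cells thinned to 1000 UMIs and 6855 without rich droplets. The FAKi ratio, 5229, was 10450.2 as a mean over cells, 2483 without the 20 genes, 634 under 5% mitochondrial UMIs and 23806 with *Cd79a* and *Cd79b* required. The ratio of β-cell cluster 1 to cluster 0, 1867 in the vehicle library, was 959.5 without the richest cell and 1.11 without rich droplets. *Igkc* in FAKi over vehicle B cells, 0.0726, was 0.257 as a mean over cells, 0.00326 under 5% mitochondrial UMIs, 0.330 with *Cd79a* and *Cd79b* required, 0.101 without the richest cell and 0.179 thinned. The share of vehicle macrophages with *Ighm*, 50.4%, was 14.5% thinned to 1000 and 26.7% thinned to 3000 UMIs, that of T cells, 27.4%, was 9.04% thinned to 1000, and that of cluster 1 cells with *Igkc*, 5.25%, was 1.69% and 1.09%. A minimum of 50 *Igkc* UMIs left 5 rich droplets in place of 10. Thinning removes UMIs by construction, and the cause of the other moves was not tested. Of 146 recomputed values, 1 changed direction, that of *Igha* in vehicle B cells over other cells, with 3 B-cell UMIs, the floor. It was 0.0341, and 9.59 without rich droplets. Another 60 moved, and the others stayed within the counting interval or, for counts of droplets or genes, within 1.5 times. *Ighm* in vehicle B cells over other cells, 648, ranged from 87.7 thinned and 90.9 as a mean over cells to 5805 under 5% mitochondrial UMIs, and was 385 without the 20 genes, 1591 with at least 1000 genes and 1902 without rich droplets. In FAKi over vehicle B cells *Ighm*, 0.0388, ranged from 0.00370 under 5% mitochondrial UMIs to 0.134 with *Cd79a* and *Cd79b* required, and the FAKi ratio of B cells to other cells, 280, from 48.0 thinned to 966. *Ighm* in cluster 1 over cluster 0, 156, was 1.28 to 1.74 in the 4 alternatives that leave out the droplet with 667 detected genes and 1165 as a mean over cells. *Jchain* in vehicle B cells over other cells, 22.1, ranged from 2.42 without the richest cell to 3797 without rich droplets. In cluster 1 over cluster 0, *Jchain*, 2602, was 3.16 without rich droplets, and *Igha*, 2772, was 11773 under 5% mitochondrial UMIs and had no value without rich droplets. Thinning was not run for the cluster ratios, and 5% mitochondrial UMIs and thinning gave no value for *Igha* in B cells. No paired analysis was possible because the table pools the lanes of each library and no test was made. The 9 FAKi B cells and 1 library a condition limit every comparison between conditions.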
